A study of Homo sapiens with 6 samples.

Results

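The genes that mark epithelial and mesenchymal cell states were followed in A549 cells, an established human lung adenocarcinoma line, after depletion of DDX17, an RNA helicase that takes part in transcription and splicing. The list held 39 genes chosen by symbol, 22 epithelial and 17 mesenchymal, out of 29476 genes in the deposited count table. Of the listed genes 38 had a row and 37 were tested, among 15615 genes with enough reads for a test. OVOL1, an epithelial transcription factor, was not analysed here. GRHL2, another one, was listed at 0 reads in 5 libraries and at 1 read in siDDX17 3, and was not tested. Polyadenylated RNA was sequenced in 3 libraries of cells transfected with a nontargeting control siRNA (siCtrl 1 to 3) and 3 libraries of cells transfected with 1 siRNA against DDX17 (siDDX17 1 to 3). Both groups were the same line in the same medium, and both were transfected with the same lipid reagent. One label field calls the control a plasmid, whereas the titles call it siCtrl. The methods call the 3 libraries of a group biological replicates and give 48 h as the harvest time for RT-qPCR, and no separate time for these libraries. A single siRNA sequence and a single line limit the groups as a model of DDX17 loss.

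Epithelial cells hold each other by adherens junctions (E-cadherin), tight junctions (claudins, occludin) and desmosomes, which are anchored to keratin filaments. In the epithelial-mesenchymal transition (EMT) the transcription factors SNAI1, SNAI2, ZEB1, ZEB2 and TWIST1 repress such genes, in part by binding short DNA motifs called E-boxes, while N-cadherin, vimentin, matrix proteins and matrix proteases rise. Carcinoma lines often hold genes of both states at the same time, and A549 is known for abundant keratins together with vimentin.

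The members did not move as 1 block in either state. Among the 20 epithelial members tested, 6 rose, 8 fell and 6 passed no test, while 24.5% of all tested genes were called higher and 24.3% lower. Of the 17 mesenchymal members 6 rose, 4 fell and 7 passed no test. EPCAM, CLDN7 and SPARC rose and CLDN4 fell by more than 2-fold, a limit passed by 4.65% of all genes upwards and by 2.92% downwards. The median log2 fold change was -0.11 over the epithelial members, 0.07 over the mesenchymal members and 0.01 over all tested genes. Here and below "rose" and "fell" mean an adjusted p under 0.05 in siDDX17 compared to siCtrl, from the quasi-likelihood test of edgeR with p-values adjusted over all tested genes by the Benjamini-Hochberg method. Log2 fold changes are given with their standard error (SE). The 3 libraries of each group did not overlap for 13 epithelial and 10 mesenchymal members, while 56.5% of all tested genes showed such a separation.

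**Figure D1:**
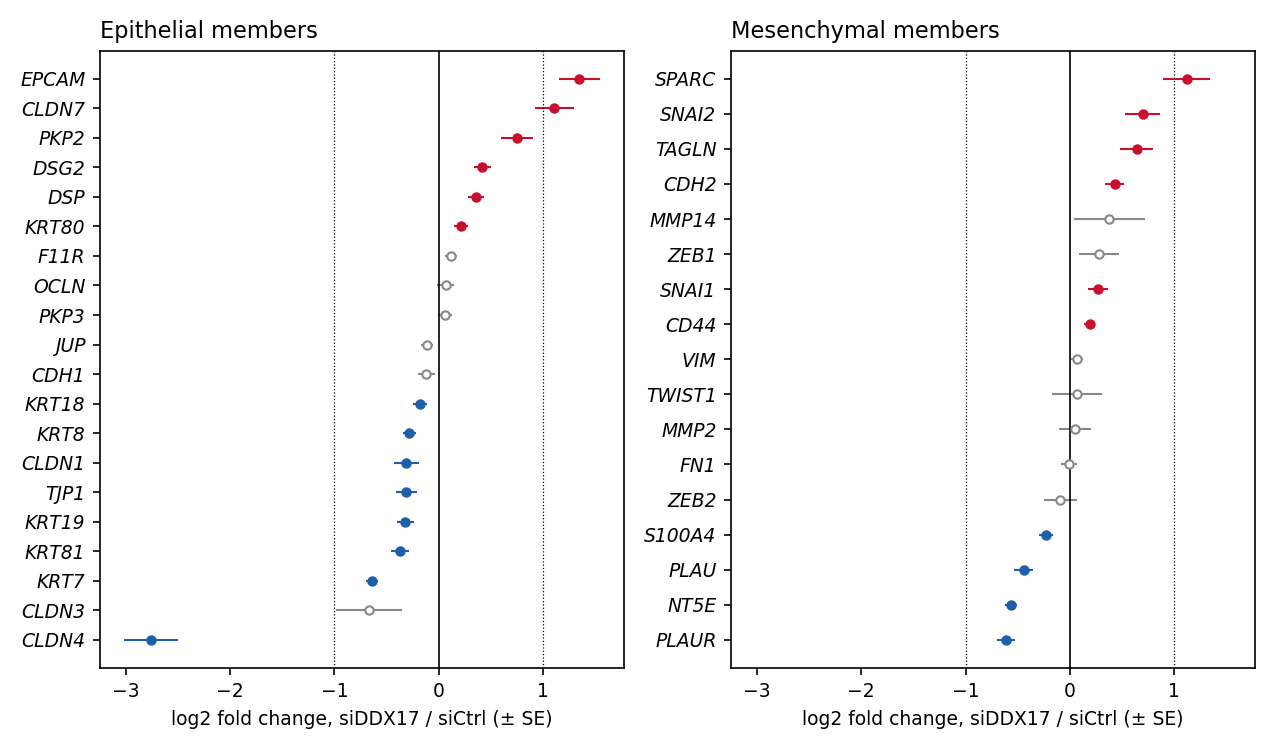
Log2 fold change (siDDX17 over siCtrl, horizontal axis) of the 20 epithelial and 17 mesenchymal members tested, with bars of 1 SE. Filled red points are genes called higher, filled blue points genes called lower, open points neither, and dotted lines mark a 2-fold change. CLDN4 at -2.76 stands farthest from 0, and most members lie within the dotted lines.

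DDX17 itself checks the labels. It stood at 177, 184 and 206 CPM, the count scaled to a common library size with the TMM method, in siCtrl 1, 2 and 3 and at 32.1, 30.8 and 30.4 CPM in siDDX17 1, 2 and 3. It fell by 83.5% (log2 fold change -2.60, SE 0.0685, edgeR adjusted p = 5.89e-11), and the exact two-sided permutation test of 3 against 3 gave p = 0.1, the smallest p it can give.

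The libraries held 30658136 to 39182371 counts. siCtrl 1 stood somewhat apart from the other controls: the common biological coefficient of variation, the relative spread between libraries of a group, was 0.0754 with all libraries and 0.0472 without it. It was above both other controls for 8 of the 20 epithelial members and below both for 8, so values without it are given for the members whose call it changed. Without siCtrl 1, 7 epithelial members were higher and 8 lower, and 7 mesenchymal members were higher and 4 lower. Calls over all genes increased too, to 4220 higher and 4312 lower of 15996 tested. With all libraries they were 3819 and 3798 of 15615. Of the 7 listed A549 markers, AKR1B10, AKR1C1, ALDH1A1 and ALDH3A1 held most of the reads, and the summed level of the list was 4495 to 4804 FPKM (the deposited unit, scaled by gene length and library size) in siCtrl and 3878 to 4010 FPKM in siDDX17. The other markers were near the floor, with NKX2-1 at 0.10 and NAPSA at 0.35 FPKM in siCtrl and SFTPB at 2 to 5 reads a library. By log2 fold change ALDH3A1 (-0.95), AKR1C1 (-0.49) and AKR1B10 (-0.33) fell and NAPSA rose (0.90). ALDH1A1 and NKX2-1 were not called, and SFTPB was not tested. The summed FPKM was 0.44 to 0.55 against 0.47 to 0.54 for 6 of 7 fibroblast markers and 0.02 to 0.06 against 0.01 to 0.03 for 3 endothelial markers. CDH5, an endothelial cadherin, and PTPRC, the pan-leukocyte marker, had at most 1 and 2 reads in any library. Leukocyte markers summed to 10.32 to 13.84 FPKM in siCtrl and 15.02 to 15.51 in siDDX17, carried by CD14, which passed no test (log2 fold change 0.22). In bulk RNA, fewer cells with a transcript and less of it per cell cannot be told apart.

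CDH1 encodes E-cadherin, the adhesion receptor of the epithelial adherens junction (chr16:68737292-68835537, plus strand). It was at 17.7, 17.8 and 15.8 CPM in siCtrl and 14.7, 16.0 and 16.5 CPM in siDDX17, and the groups overlapped. Its log2 fold change of -0.12 (SE 0.0817) did not pass the test (edgeR adjusted p = 0.247). The sign of this small difference came from the scaling, since with library size only it was 0.00 and the mean FPKM was 3.15 ± 0.22 (SD, n = 3) in siCtrl and 3.16 ± 0.20 in siDDX17.

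EPCAM, the epithelial cell adhesion molecule (chr2:47345158-47387601, plus strand), was low but rose in every siDDX17 library. It stood at 0.738, 1.08 and 0.827 CPM in siCtrl, from 25 to 31 reads, and at 2.28, 2.22 and 2.21 CPM in siDDX17, from 81 to 88 reads. The lowest siDDX17 library was 2.21 CPM and the highest siCtrl library 1.08 CPM, so the groups were well apart. EPCAM rose 2.55-fold (log2 fold change 1.35, SE 0.195, edgeR adjusted p = 7.68e-05), and without siCtrl 1 by 1.23 on the log2 scale.

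CLDN7, a claudin that binds EPCAM, rose too (chr17:7259903-7263983, minus strand). It had 0.915, 0.944 and 0.881 CPM in siCtrl and 1.79, 1.92 and 2.21 CPM in siDDX17. The siCtrl libraries lay close together and below each siDDX17 library. The change was 2.16-fold (log2 fold change 1.11, SE 0.190, edgeR adjusted p = 0.000322). CLDN7 and EPCAM were both minor transcripts, with 25 to 88 reads in a library.

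CLDN4, a sealing claudin of the tight junction (chr7:73799542-73832690, plus strand), went the other way and had the largest change of the 37 tested members. Its levels were 1.74, 1.82 and 2.03 CPM in siCtrl and 0.311, 0.329 and 0.182 CPM in siDDX17. All siDDX17 libraries held 7 to 12 reads and all siCtrl libraries 52 to 76, with no overlap. CLDN4 fell by 85.2% (log2 fold change -2.76, SE 0.260, edgeR adjusted p = 1.81e-06). It passed the low-count filter in 3 siCtrl and 2 siDDX17 libraries, and a filter asking for 10 counts in every library removes it.

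The promoter sequences of these claudins are shown because they differ in E-boxes, the motif CACCTG (either strand) that SNAI and ZEB proteins are known to bind. The 250 bases before the start of the canonical transcript are from RefSeq (GRCh38.p14), with the motif in capitals. The CLDN7 sequence is chr17:7262479-7262728 on the minus strand and that of CLDN4 is chr7:73830746-73830995 on the plus strand.
CLDN7: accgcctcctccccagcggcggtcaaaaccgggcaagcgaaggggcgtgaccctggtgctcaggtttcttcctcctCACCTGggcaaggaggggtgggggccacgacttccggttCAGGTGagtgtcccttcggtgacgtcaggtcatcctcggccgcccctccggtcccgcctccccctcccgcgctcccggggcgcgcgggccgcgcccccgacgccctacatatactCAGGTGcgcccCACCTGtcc
CLDN4: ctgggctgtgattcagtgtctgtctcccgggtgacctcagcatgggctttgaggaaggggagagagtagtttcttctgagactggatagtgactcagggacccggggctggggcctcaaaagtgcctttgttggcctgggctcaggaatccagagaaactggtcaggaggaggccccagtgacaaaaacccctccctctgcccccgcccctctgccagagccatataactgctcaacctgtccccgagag
With 50 bases after the start included, the CLDN7 window held 5 matches, first bases at -174, -135, -20, -9 and 6 relative to the start, and 33 of 35116 windows (0.094%) held at least 5. The CLDN4 window held none. Windows were found for 22 of the 39 members, of which 10 held a match (45.5%), against 24.1% of 27305 genes with a window. CDH1 was among the members without a window, so its promoter was not searched. Several members have more than 1 window, and by window 33.3% of 36 held a match, against 20.6% of all windows. A second CLDN7 window 735 bases further upstream held none. A match is a description of these letters and not a binding site, and members of both states held one: CLDN3, OCLN, TJP1, DSP, DSG2 and JUP besides CLDN7, and S100A4, PLAU and ZEB1.

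The other tight junction members gave small or no changes. CLDN1, the most abundant claudin of the list at a mean of 25.2 FPKM in siCtrl, was called lower (log2 fold change -0.31, SE 0.118, edgeR adjusted p = 0.0417), with 121 CPM in siCtrl 1 against 87.3 and 78.5 CPM in siCtrl 2 and 3 and 76.5 to 77.5 CPM in siDDX17. Without siCtrl 1 its log2 fold change was -0.11 (edgeR adjusted p = 0.0723), and the call was lost in 10 of 15 alternative settings, DESeq2 among them (adjusted p = 0.169). TJP1, the scaffold protein ZO-1, had the same shape, with 57.5 CPM in siCtrl 1, 43.1 and 42.1 CPM in siCtrl 2 and 3 and 37.0 to 40.4 CPM in siDDX17. Its log2 fold change was -0.31 (edgeR adjusted p = 0.0200) and -0.16 without siCtrl 1, and the call was lost in 5 of 15 settings. CLDN3 (log2 fold change -0.67, SE 0.319, 21 to 58 reads a library), OCLN, which encodes occludin (0.07), and F11R, the junctional adhesion molecule JAM-A (0.12), did not pass the test, and their groups overlapped. Without siCtrl 1, F11R was called higher (0.15, edgeR adjusted p = 0.0212).

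**Figure D2:**
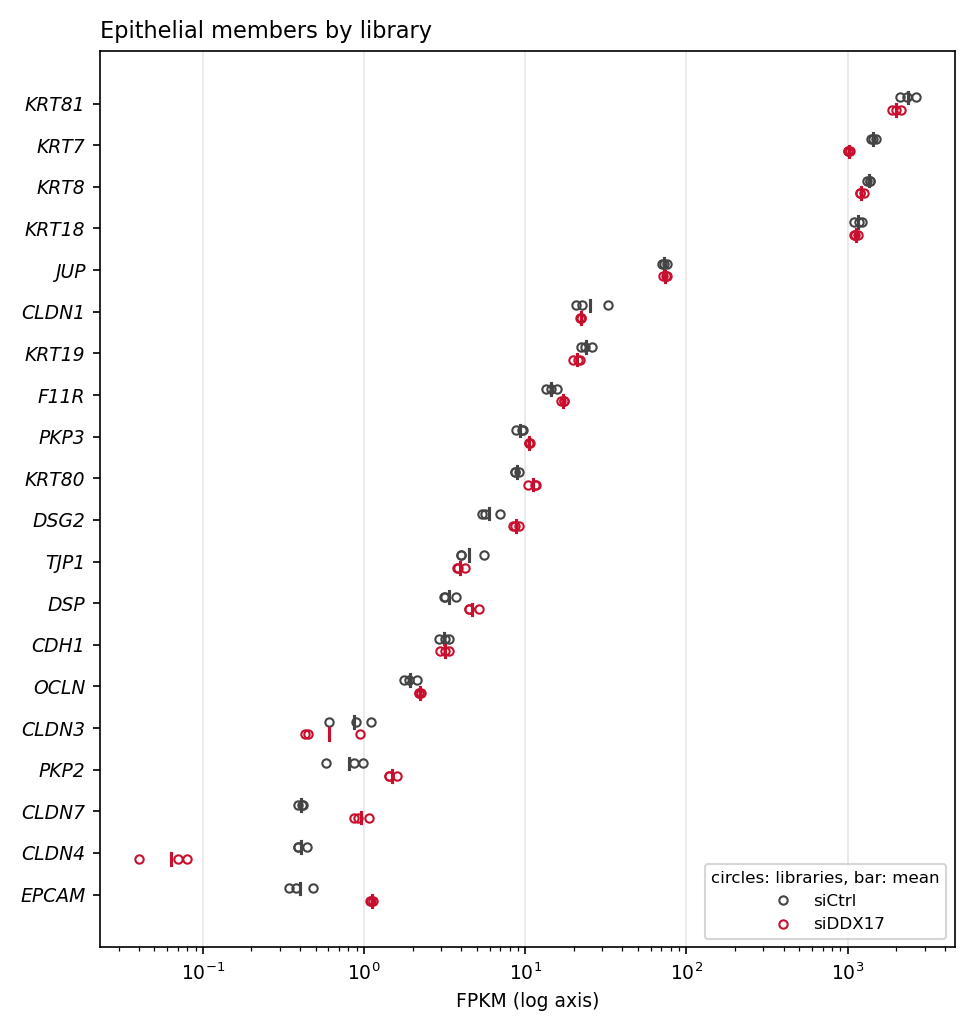
FPKM (log axis) of the 20 tested epithelial members in each library, as circles, with bars at the group means, siCtrl in grey and siDDX17 in red. Levels span from 0.04 FPKM for CLDN4 for one siDDX17 library to a siCtrl mean of 2370 FPKM for KRT81, and the groups of CLDN4, EPCAM and CLDN7 stand clear of each other.

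Of the 5 desmosome members, grouped after the values had been seen, 3 rose, while 24.5% of all tested genes were called higher. PKP2, a plakophilin of the desmosomal plaque, was at 4.64, 2.87 and 4.14 CPM in siCtrl and 7.14, 6.36 and 6.26 CPM in siDDX17. Every siDDX17 library was above every siCtrl library, and PKP2 rose by 0.75 on the log2 scale (SE 0.152, edgeR adjusted p = 0.00115). DSG2, a desmosomal cadherin, rose from 40.4 ± 4.73 to 53.9 ± 1.94 CPM (SD, n = 3; log2 fold change 0.42, edgeR adjusted p = 0.000588). DSP, desmoplakin, the link from the plaque to keratin filaments, rose from 35.7 ± 2.84 to 45.9 ± 3.97 CPM (log2 fold change 0.36, edgeR adjusted p = 0.00164). The remaining desmosome members PKP3 (0.06) and JUP, plakoglobin (-0.11), did not pass the test, and JUP was at 0.01 with library size only. Without siCtrl 1, JUP was called lower (-0.16, edgeR adjusted p = 0.00391). JUP was the most abundant of the 5 per length, at 72.9 FPKM in siCtrl and 73.9 FPKM in siDDX17. Averaged over the 5 genes, the log2 CPM was 5.19, 4.97 and 5.11 in siCtrl and 5.45, 5.38 and 5.35 in siDDX17, a grouping made after the values had been seen and given without a test. The DSP and DSG2 promoters each held a pair of E-box matches, as did 1 of the JUP windows (-54 and -43). Pairs were also held by a window of OCLN (-133 and 36), which was not called, and of PLAU (-233 and 41), which fell. A ZEB1 window held matches at -242, -85 and 34, and ZEB1 was not called. EPCAM, PKP2 and KRT80, which rose, had no window. DSP and DSG2 were picked for display because they rose along with CLDN7, and a link between matches and change was not tested. They are shown as RefSeq sequences of 250 bases at chr6:7541421-7541670 and chr18:31497927-31498176, both on the plus strand.
DSP: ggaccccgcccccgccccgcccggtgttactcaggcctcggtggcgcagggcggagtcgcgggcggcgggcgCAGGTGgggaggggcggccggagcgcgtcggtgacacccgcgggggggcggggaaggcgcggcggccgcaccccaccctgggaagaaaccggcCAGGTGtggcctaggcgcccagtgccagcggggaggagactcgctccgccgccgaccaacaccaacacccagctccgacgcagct
DSG2: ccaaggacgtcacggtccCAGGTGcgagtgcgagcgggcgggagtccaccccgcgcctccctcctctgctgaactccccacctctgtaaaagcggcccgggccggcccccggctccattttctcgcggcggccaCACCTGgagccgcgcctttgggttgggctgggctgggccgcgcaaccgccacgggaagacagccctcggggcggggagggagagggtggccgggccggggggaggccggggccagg

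Keratins form the intermediate filaments of epithelia. Of the 6 keratin members 5 fell and 1 rose, while 24.3% of all tested genes were called lower. KRT7, a keratin of simple glandular epithelia (chr12:52232520-52252186, plus strand), was at 2601, 2834 and 2860 CPM in siCtrl and 1757, 1835 and 1745 CPM in siDDX17. The groups lay far apart relative to their spread, and KRT7 fell by 35.7% (log2 fold change -0.64, SE 0.0605, edgeR adjusted p = 1.95e-06). An antisense gene listed as RP3-416H24.1 overlaps the KRT7 locus with 65 to 105 reads a library and fell too (log2 fold change -0.65, edgeR adjusted p = 0.00289). The spans of KRT86 (plus strand, 4552 to 6705 reads) and the pseudogene KRT87P (minus strand, 2585 to 5626 reads) also overlap that of KRT7. Those of KRT8 (minus strand) and KRT18 (plus strand) overlap each other. Whether strand was used in counting is not given in the sources used here. KRT8, the type II partner of KRT18 in simple epithelia, was at 3126, 3416 and 3330 CPM in siCtrl and 2646, 2856 and 2625 CPM in siDDX17. KRT8 fell by 17.7% (log2 fold change -0.28, edgeR adjusted p = 0.00216), with no overlap.

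KRT18 was at 2357, 2624 and 2683 CPM in siCtrl and 2222, 2361 and 2161 CPM in siDDX17, and siDDX17 2 lay just above siCtrl 1. KRT18 fell by 12.0% (log2 fold change -0.18, SE 0.0660, edgeR adjusted p = 0.0332), a call that was lost in 8 of the 15 alternative settings. KRT81, a hair-type keratin and the most abundant member per length at 2370 ± 269 FPKM in siCtrl, was at 4358, 5057 and 5577 CPM in siCtrl and 3611, 3910 and 4086 CPM in siDDX17. KRT81 fell by 22.6% (log2 fold change -0.37, SE 0.0847, edgeR adjusted p = 0.00270), a call that was lost in 2 of 15 settings. In FPKM its groups overlapped, with siCtrl 1 at 2114 and siDDX17 3 at 2145. KRT81 lies within the span of its near-identical neighbour KRT86, which is on the other strand. KRT86 (log2 fold change -0.45) and the pseudogene KRT87P (-0.51, not called) may share reads with KRT81, and KRT8 and KRT18 have many pseudogene copies, so these levels are uncertain. KRT19 fell (log2 fold change -0.32, edgeR adjusted p = 0.00418, lost in 2 of 15 settings) and KRT80 alone rose (0.21, edgeR adjusted p = 0.0189, lost in 4 of 15 settings). With library size only the falls were smaller. The log2 fold changes were then -0.51 for KRT7, -0.24 for KRT81, -0.20 for KRT19 and -0.16 for KRT8. KRT18 (-0.06) was not called in that setting, and KRT80 was at 0.33. Over KRT7, KRT8, KRT18 and KRT19 the mean log2 CPM was 9.80, 9.94 and 9.97 in siCtrl and 9.51, 9.62 and 9.51 in siDDX17, again a grouping made after the values had been seen.

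CDH2 encodes N-cadherin, the cadherin that replaces E-cadherin in EMT (chr18:27932879-28177946, minus strand). It was at 28.7, 22.2 and 23.2 CPM in siCtrl and 30.8, 33.7 and 35.5 CPM in siDDX17. All siDDX17 libraries were above all siCtrl libraries, with siCtrl 1 nearest to them. CDH2 rose by 0.43 on the log2 scale (SE 0.0940, edgeR adjusted p = 0.00194), and by 0.54 without siCtrl 1. Per length CDH2 was the more abundant cadherin in both groups, at 5.10 ± 0.83 FPKM in siCtrl and 7.50 ± 0.56 FPKM in siDDX17, next to a CDH1 level near 3 FPKM.

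Vimentin and fibronectin, a mesenchymal filament and a matrix protein that serve as standard EMT readouts, did not pass the test. VIM was at 1047, 1094 and 1039 CPM in siCtrl and 1125, 1115 and 1094 CPM in siDDX17 (log2 fold change 0.07, SE 0.0543, edgeR adjusted p = 0.318). The upward difference of VIM passed the test in 3 of 15 alternative settings. Library size only was 1 of them (0.19, edgeR adjusted p = 0.00322), a setting that moved the median of all genes by 0.12. In CPM siDDX17 3 (1094.1) lay just below siCtrl 2 (1094.2). In FPKM the VIM groups did not overlap, with 454 ± 7.25 in siCtrl and 521 ± 6.07 in siDDX17 (SD, n = 3). FN1 was at 574, 455 and 472 CPM in siCtrl and 502, 502 and 487 CPM in siDDX17, where siCtrl 1 was the highest library of all. Its log2 fold change was -0.01 (SE 0.0776, edgeR adjusted p = 0.929), 0.09 without siCtrl 1 and 0.11 with library size only.

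SPARC, a secreted matrix-associated glycoprotein (chr5:151661096-151686975, minus strand), had the largest change among the mesenchymal members. It was at 0.827, 1.01 and 1.15 CPM in siCtrl and 2.78, 1.78 and 1.97 CPM in siDDX17, from 28 to 107 reads. The groups did not overlap, and siDDX17 1 was the highest library. SPARC rose 2.18-fold (log2 fold change 1.12, SE 0.224, edgeR adjusted p = 0.00102), and the log2 fold change was 0.99 without siCtrl 1. TAGLN, the actin-binding protein transgelin, was at 2.21, 2.17 and 1.89 CPM in siCtrl and 3.53, 3.43 and 2.83 CPM in siDDX17. TAGLN rose by 0.64 on the log2 scale (SE 0.155, edgeR adjusted p = 0.00368), with no overlap. S100A4, a calcium-binding protein that is used as a fibroblast marker, fell (log2 fold change -0.23, edgeR adjusted p = 0.0131) from 789 ± 44.1 to 675 ± 50.0 CPM (SD, n = 3), and the call was lost in 5 of 15 settings, library size only among them (-0.10, edgeR adjusted p = 0.151).

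The 5 EMT transcription factors were all detected, and 2 of them rose. SNAI2, or Slug, was at 2.39, 2.10 and 1.92 CPM in siCtrl and 2.85, 3.98 and 3.56 CPM in siDDX17. SNAI2 rose by 0.70 on the log2 scale (SE 0.166, edgeR adjusted p = 0.00355), and the groups did not overlap. SNAI1, or Snail, was at 10.4, 12.1 and 10.4 CPM in siCtrl and 12.2, 14.2 and 13.1 CPM in siDDX17. The gap between the highest siCtrl library and the lowest siDDX17 library was small, and SNAI1 rose by 0.27 on the log2 scale (SE 0.0937, edgeR adjusted p = 0.0284), a call that was lost in 3 of 15 alternative settings. SNAI1 had the highest level of the 5 per length, 5.95 ± 0.41 FPKM in siCtrl and 7.84 ± 0.53 FPKM in siDDX17.

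ZEB1 was at 4.49, 2.38 and 2.96 CPM in siCtrl and 3.55, 4.42 and 4.05 CPM in siDDX17. siCtrl 1 was the highest of the 6 libraries while the other controls were the lowest, so the groups overlapped and ZEB1 did not pass the test (log2 fold change 0.28, SE 0.195, edgeR adjusted p = 0.254). Without siCtrl 1 it was 0.56 (edgeR adjusted p = 0.00320). ZEB2 was at 8.24, 5.14 and 5.36 CPM in siCtrl and 5.71, 6.17 and 5.71 CPM in siDDX17, again with siCtrl 1 highest (log2 fold change -0.09, SE 0.159, edgeR adjusted p = 0.650, and 0.15 without siCtrl 1). TWIST1 was at 1.09, 1.12 and 0.854 CPM in siCtrl and 0.830, 1.07 and 1.30 CPM in siDDX17, fully overlapping (log2 fold change 0.07, SE 0.237, edgeR adjusted p = 0.827). The antisense gene ZEB1-AS1 overlaps ZEB1 (log2 fold change 0.33, not called), and VIM-AS1 overlaps VIM (-0.37, not called).

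**Figure D3:**
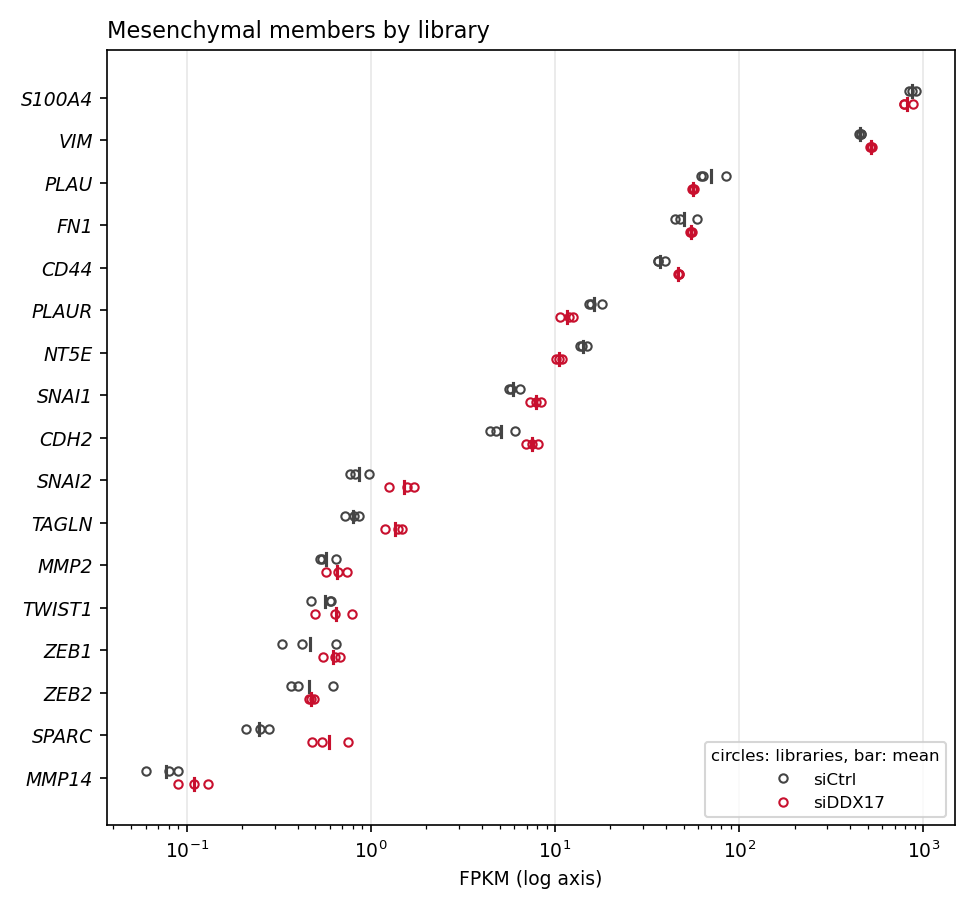
FPKM (log axis) of the 17 mesenchymal members in each library, as circles, with bars at the group means, siCtrl in grey and siDDX17 in red. S100A4 and VIM lie highest, at 874 and 454 FPKM on average in siCtrl, and MMP14 lowest at 0.077 FPKM. In this unit the groups of SPARC, TAGLN, SNAI1, SNAI2, CDH2, CD44, NT5E, PLAU and PLAUR do not overlap. Nor do those of VIM, which was not called in the main fit.

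The urokinase system, in which the protease PLAU is held at the cell surface by its receptor PLAUR, fell. PLAUR was at 35.9, 38.5 and 43.4 CPM in siCtrl and 23.5, 27.8 and 25.8 CPM in siDDX17 (chr19:43646095-43670547, minus strand). PLAUR fell by 34.7% (log2 fold change -0.61, SE 0.0843, edgeR adjusted p = 5.18e-05), with a clear gap between the groups. PLAU was at 244, 191 and 182 CPM in siCtrl and 152, 153 and 147 CPM in siDDX17. PLAU fell by 26.5% (log2 fold change -0.44, SE 0.0906, edgeR adjusted p = 0.00118) and by 0.31 on the log2 scale without siCtrl 1, its highest library. MMP2, a gelatinase, and MMP14, the membrane protease that activates it, were the least abundant of these genes, at 0.57 and 0.077 FPKM in siCtrl, and passed no test (log2 fold change 0.05 and 0.38). MMP14 held 8 to 18 reads a library, and its SE was 0.339.

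The surface markers moved apart. NT5E, the ecto-enzyme CD73, was at 67.8, 64.8 and 64.5 CPM in siCtrl and 46.3, 43.2 and 43.8 CPM in siDDX17. NT5E fell by 32.4% (log2 fold change -0.56, SE 0.0572, edgeR adjusted p = 3.46e-06), with one of the tightest spreads among members. CD44, the hyaluronan receptor, rose from 250 ± 9.39 to 286 ± 5.07 CPM (SD, n = 3; log2 fold change 0.19, SE 0.0543, edgeR adjusted p = 0.00916).

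**Figure D4:**
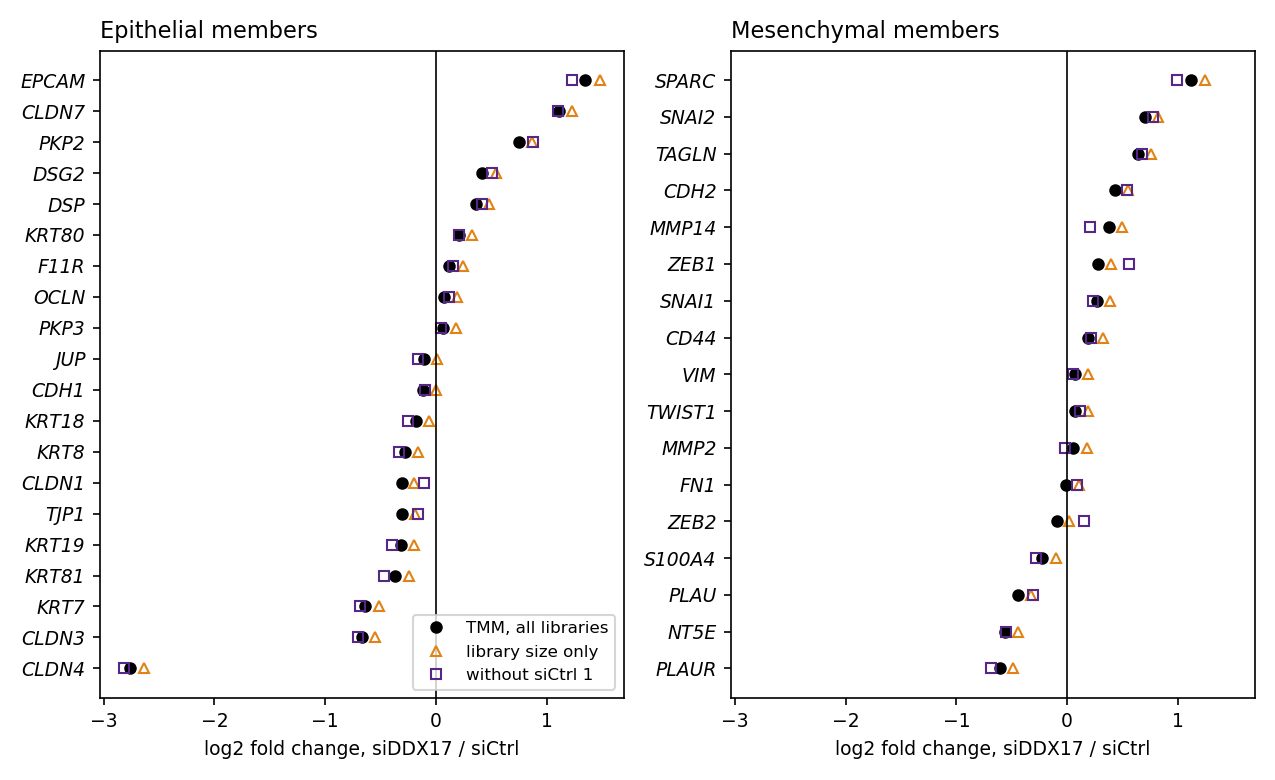
Log2 fold change (siDDX17 over siCtrl) of each member under the main TMM scaling with all libraries (black circles), under library size only (orange triangles) and without siCtrl 1 (purple squares). Triangles lie to the right of the circles by about the same amount for every gene, 0.12 for the median of all genes, whereas squares depart from the circles by varying amounts, for example to 0.56 for ZEB1 and to 0.15 for ZEB2.

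Small interfering RNAs can also repress transcripts whose 3' UTR pairs with bases 2 to 8 of a strand, so the members were searched for these 7 letters. For the DDX17 siRNA, the letters TATTGCT, which pair with its antisense strand, were found in 5 of 37 members (13.5%), against 14.5% of 12987 tested genes with an annotated 3' UTR, a share close to the background. Apart from SNAI2 the sites are given with 10 bases on each side, the match in capitals, from the canonical GENCODE release 44 transcripts on GRCh38. They lie at chr11:35232324-35232350 (CD44, plus strand), chr18:31548233-31548259 (DSG2, plus), chr3:190306569-190306595 (CLDN1, minus) and chr12:52169664-52169690 (KRT80, minus).
CD44: atgatatgtaTATTGCTgagttgaaag
DSG2: ggttatatttTATTGCTtctagaaaca
CLDN1: gctgtaagctTATTGCTtcatctgtaa
KRT80: gcttttaactTATTGCTtcccttcctg
CLDN1 was called lower, and CD44, DSG2, KRT80 and SNAI2 rose. CLDN4, KRT7, PLAUR and NT5E, the members that fell most, held no such match in the canonical 3' UTR. Other kinds of pairing were not searched, and whether the siRNA acted on any member was not tested. The letters TCGGAGA, which pair with the sense strand of the siCtrl duplex, were present in MMP14 alone (2.7% of members, against 2.13% of the 12987 genes). Over all those genes the median log2 fold change was 0.23 with this match and -0.01 without it. A match to the antisense strand of the siCtrl duplex was held by 0 members, against 3.07% of the genes. The medians for that strand were 0.03 with a match and -0.01 without. For the antisense strand of the DDX17 siRNA the medians were -0.03 with a match and 0.0 without. The cause of these differences was not tested. The letters ATGGGTG, which pair with the sense strand of the DDX17 duplex, were found in 5 of 37 members (13.5%, against 10.5% of the 12987 genes), namely PLAU, which fell, SPARC, DSG2 and KRT80, which rose, and F11R.

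Other genes of the same programmes were read beside the members, and their counts stand beside the 24.5% of all tested genes called higher and the 24.3% called lower. Of 26 other junction genes tested, 11 rose and 4 fell, with a median log2 fold change of 0.25. PPL and EVPL, periplakin and envoplakin of the desmosome and the cornified envelope, rose by 1.21 (SE 0.109) and 0.97 (SE 0.0959). PERP, a desmosome-associated membrane protein, rose by 1.07 from 113 ± 5.82 to 238 ± 6.54 CPM (SD, n = 3; edgeR adjusted p = 1.43e-08), and AFDN, the junction scaffold afadin, rose by 0.76. Of 7 other keratins KRT10 (-0.53) and KRT86 (-0.45) fell and KRT4 rose (0.33). Among 14 other epithelial regulators and surface genes, 3 rose and 3 fell, including the transcription factors KLF4 (-0.68), GRHL3 (-0.40), FOXA1 (-0.33) and EHF (0.50).

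Among 22 other mesenchymal genes tested, 11 rose and 2 fell, with a median log2 fold change of 0.40. ACTA2, smooth muscle actin, rose from 10.6 ± 0.96 to 26.3 ± 2.06 CPM (SD, n = 3; log2 fold change 1.31, edgeR adjusted p = 1.05e-07). TPM2, a tropomyosin that binds actin, rose from 315 ± 33.0 to 630.0 ± 23.3 CPM (edgeR adjusted p = 1.96e-07) and FBN1, fibrillin, by 0.84, whereas ITGA5, a fibronectin receptor subunit, had a log2 fold change of -0.89 (edgeR adjusted p = 1.3e-07) and fell. Of 18 other EMT regulators 6 rose and 6 fell. ID2, an inhibitor of basic helix-loop-helix factors, fell from 86.5 ± 10.6 to 31.6 ± 1.63 CPM (log2 fold change -1.45, edgeR adjusted p = 2.23e-08). TCF3, whose products E12 and E47 are E-box binding factors that ID proteins bind, rose from 21.7 ± 1.04 to 53.1 ± 4.13 CPM (1.29, edgeR adjusted p = 1.98e-08). TWIST2 (0.61) and the receptor TGFBR1 (0.45) rose as well. Among 17 other proteases and inhibitors 7 rose and 5 fell, with MMP24, a membrane-type matrix metalloprotease, going from 16.5 ± 0.17 to 61.3 ± 2.25 CPM (log2 fold change 1.89, edgeR adjusted p = 3e-10). MMP7 (0.52) and MMP15 (0.48) rose, and RECK, a membrane inhibitor of such proteases, had a log2 fold change of -0.53 and fell.

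**Figure D5:**
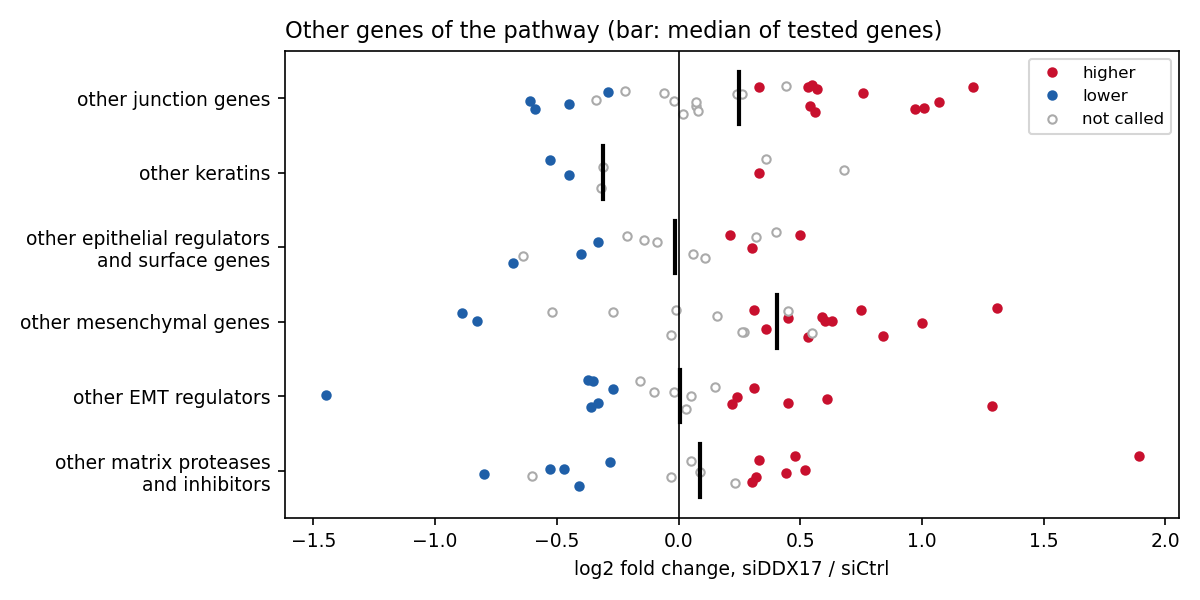
Log2 fold change (siDDX17 over siCtrl) of the tested genes of 6 further lists, 1 point a gene, red for higher, blue for lower and open for not called, with a bar at each median. The junction and mesenchymal lists have their medians to the right of 0, at 0.25 and 0.40. The keratin median of -0.31 is the value of KRT16, which held 5 to 19 reads a library (SE 0.536). KRT16 was not called, and 4 of the 7 keratins in all were not called.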

How the data were processed

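RNA-seq of polyadenylated RNA was analysed from 6 A549 libraries, grouped by their labels into 3 siCtrl and 3 siDDX17. Trimmed reads had been mapped to GRCh38 with TopHat2 allowing 4 mismatches, and the authors deposited raw counts of uniquely mapped reads per gene and rounded FPKM values for each library. The counting program, the annotation release and the use of strand are not given in the sources used here, and the submitters' processing notes list bcl2fastq, TopHat2 and edgeR.

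Counts were tested with edgeR 4.0.16 in R 4.3.3 (TMM scaling, filterByExpr, glmQLFit and glmQLFTest, Benjamini-Hochberg adjustment over 15615 genes), which was checked on simulated counts. Levels are CPM, or the deposited FPKM where genes are compared with each other. As alternatives, DESeq2 1.42.0 was run, the scaling was changed (RLE, upper quartile, or library size only), the filter was removed or set to 10 counts in each library, the replicate number was added as a block, and each library was left out. Beside these, limma 3.58.1 was run on log2 of the deposited FPKM plus 1 or plus 0.1, and calls were repeated at an unadjusted p under 0.01 with a fold change over 1.5, as in the study's methods.

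The members and lists were chosen with earlier results of these data known. Every member is accounted for, and values per library are given for members past 2-fold, the 3 members with the largest called changes in each direction and state, CDH1, CDH2, VIM, FN1, EPCAM, KRT8, KRT18, the 5 EMT transcription factors and DDX17. CLDN1 and TJP1 are given per library because siCtrl 1 is their highest library. From each other list up to 4 called genes with the largest changes and a mean of at least 1 CPM are named. Positions are from GENCODE release 44 (98.9% of tested gene identifiers matched) and promoters from RefSeq GRCh38.p14, with 250 bases before and 50 after the start. Python 3.11.15 with pandas 2.3.3, numpy 2.4.6, scipy 1.17.1 and matplotlib 3.10.9 was used. Depth of 30658136 to 39182371 counts means that 3 reads, the most that a count of 0 allows, stand for 0.0778 to 0.105 CPM, counting error only.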

Additional observations from a re-analysis of the deposited data

How the results depend on the processing

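Of 553 comparisons of a single member under an alternative setting, 479 kept direction and side of the threshold, 14 gained a call, 39 lost one and 21 changed sign, and 18 of the 37 members kept both throughout. With the replicate block, 6 epithelial members were higher and 8 lower and 6 mesenchymal members were higher and 4 lower, as without it, and 3743 genes were higher and 3738 lower. The numbers do not pair the libraries: deviations of same-numbered libraries from their group means correlated at 0.00698, 0.0407 and -0.0564.

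With library size only the median of all genes was 0.13 (67.7% of called genes higher, 50.1% with TMM), 2494 genes and 5 epithelial members were lower, the state medians were 0.01 (epithelial) and 0.19 (mesenchymal), and CDH1 (0.00), JUP (0.01), FN1 (0.11) and ZEB2 (0.02) changed sign. With upper quartile scaling the medians were -0.08 for epithelial members and 0.04 for all genes, and FN1 was at 0.02. With limma on log2(FPKM + 1), 3 epithelial members were lower, 0 members of either state passed 2-fold (a pseudocount of 1 shrinks low levels), all genes counted 2369 lower, 160 higher and 89 lower by over 2-fold, the medians were 0.01 for epithelial members and 0.07 for all genes, and CDH1 (0.01), JUP (0.02), FN1 (0.12) and ZEB2 (0.01) changed sign. With log2(FPKM + 0.1), 3 epithelial members were lower, 0 mesenchymal members passed 2-fold, 2374 genes were lower and 210 by over 2-fold, the medians were 0.01 (epithelial), 0.20 (mesenchymal) and 0.12 (all), and CDH1 (0.01), JUP (0.02), FN1 (0.13) and ZEB2 (0.05) changed sign.

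A minimum of 10 counts in every library left 0 epithelial members lower by over 2-fold, since CLDN4 was removed, and FN1 at 0.00. By the limits of the methods, applied to the main fit made here, 1713 of all 15615 genes passed upwards and 1254 downwards. The paper reports fewer genes in each direction at these limits, and it names edgeR but not the test within it. By these limits 3 epithelial members were higher and 2 lower, and 3 mesenchymal members were higher and 1 lower. Leaving out 1 library gave 5 to 8 lower epithelial members (5 without siDDX17 1), 1 to 2 of them by over 2-fold (2 without siDDX17 2), 0 to 1 mesenchymal members higher by over 2-fold (0 without siCtrl 1 or siDDX17 1), and medians of -0.14 to -0.08 (epithelial) and 0.07 to 0.19 (mesenchymal). Over all tested genes these fits called 3101 (without siDDX17 3) to 4312 (without siCtrl 1) lower. Without siCtrl 1, FN1 (0.09), MMP2 (-0.02) and ZEB2 (0.15) changed sign. So did TWIST1 without siCtrl 3 (-0.05) or siDDX17 3 (-0.10), MMP2 without siDDX17 2 (-0.05) and FN1 without siDDX17 3 (0.01). Over these fits ZEB2 ranged from -0.22 to 0.15 and TWIST1 from -0.10 to 0.22. The causes were not tested. MMP14, TWIST1, CLDN3 and CLDN4 held at most 76 reads in a library.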
